A study of Homo sapiens with 6 samples.

Results

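A set of 50 genes of excision repair, mismatch repair, end joining and ADP-ribose signalling was examined in H1048, a human small cell lung cancer line. Genes were taken by symbol from the authors' deposited table of 16953 genes, and all 50 had a row and an adjusted p. The study exposed wild-type H1048 cells to the macrolide ISP-I, short for isovalerylspiramycin I in the series' title, at 10 µM in 3 samples, or to the solvent DMSO (at most 0.02%) in 3 samples, each for 48 h, and sequenced their RNA. The series' title names reactive oxygen species and DNA damage as what the drug acts through, which makes the repair of oxidized bases the first group of interest. The samples of a group are called biological replicates of the line in the series' design text.

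The deposited comparison names its libraries by letter and sets D, E and F against A, B and C. No label used here ties a library letter to a treatment, so which set received ISP-I is not stated and every difference below is that of set D to F over set A to C. For the same reason the values per library were not used: levels, spreads between replicates and depth are not given, fold changes carry no standard error, and the replicate error enters only through the authors' adjusted p. "Higher" and "lower" are used for genes with an adjusted p under 0.05. The identity of the line could not be checked by level. Tuft cell markers were lower in 4 of 6 cases in the authors' deposited table, POU2F3 (log2 fold change -1.71), AVIL, SOX9 and KIT. Of 5 neuroendocrine markers with a row, SYP (2.51) and INSM1 (1.81) were higher and NCAM1 (-0.80) was lower in the authors' deposited table. Of 4 epithelial markers KRT8 (1.24), KRT18 (1.12) and EPCAM (0.55) were higher and CDH1 (-1.34) lower in the same deposited table. Among markers of other cell types, 1 of 6 fibroblast genes was higher and 3 lower, and 1 of the 5 leukocyte and 1 of the 4 endothelial genes with a row were higher. The part of cell identity in the repair values was not tested.

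Cells remove small base lesions by base excision repair. A glycosylase cuts the damaged base from the sugar, an endonuclease opens the strand at the abasic site, and a polymerase and a ligase close the gap on the scaffold XRCC1, while PARP enzymes bind the break and mark it with ADP-ribose chains. Bulky lesions are cut out as a short oligonucleotide by nucleotide excision repair, replication errors are removed by mismatch repair, and broken ends are rejoined by the Ku, DNA-PK and ligase IV machinery of end joining. Oxidized guanine is the most studied lesion of oxidative stress: NUDT1 removes the oxidized nucleotide from the pool before it is built in, OGG1 excises it from DNA opposite cytosine, and MUTYH removes adenine that has been placed opposite it.

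Of the 50 genes, 13 were higher and 17 lower in libraries D to F, and 20 passed in neither direction. That is 60.0% called, against 57.6% of all 15976 genes with an adjusted p in the authors' deposited table, so the number of calls is near the background. By direction, 26.0% of the repair genes were higher against a background of 29.7%, and 34.0% were lower against 27.9%. The changes were of moderate size. Only 4 repair genes, PARP1 and LIG3 (lower) and DDB2 and ERCC4 (higher), were called with a change of at least 2-fold, which is 8.0% of the set against 24.1% of all genes tested (12.8% higher and 11.3% lower). At least 1.5-fold, 4 were higher and 9 lower, or 26.0% of the set against a background of 40.7% (21.2% higher and 19.5% lower). The median absolute log2 fold change was 0.45 in the repair genes and 0.67 over all genes tested, and the median signed values were -0.04 and 0.05. The plot of fold changes by pathway shows each gene.

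**Figure D1:**
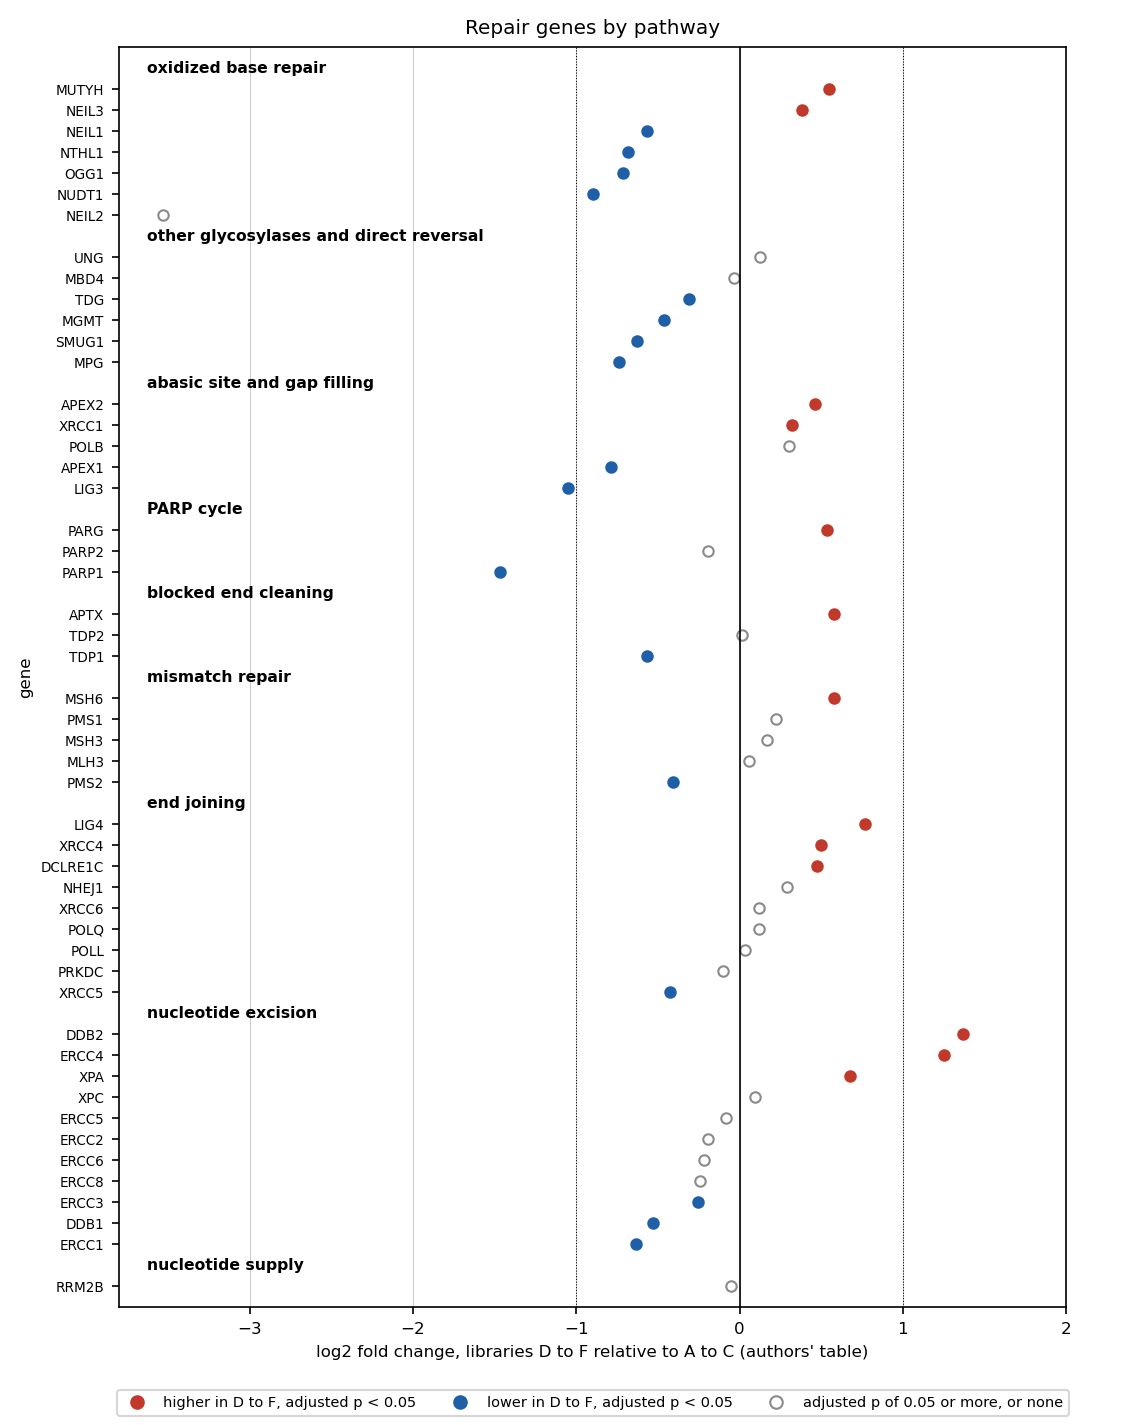
Log2 fold change of set D to F over set A to C (horizontal axis) for the 50 repair genes, 1 point per gene, grouped by pathway and ordered by value within each. Red and blue points are genes that passed an adjusted p of 0.05 as higher or lower, open points passed in neither direction, and dotted lines mark a 2-fold change. Points beyond the dotted lines are DDB2 and ERCC4 on the right, PARP1 and LIG3 on the left, and NEIL2, which was not called.

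Among the 7 genes of oxidized base repair, 4 were lower, 2 higher and 1 was not called, with a median log2 fold change of -0.68. Lower calls made up 57.1% of the 7 and higher calls 28.6%, against 27.9% and 29.7% of all genes tested. The sanitizing hydrolase NUDT1 (chromosome 7, 2242222 to 2251146 in GENCODE release 29, GRCh38) had the largest called change of the group, 1.86-fold lower (log2 fold change -0.90 with an adjusted p of 2.86e-07, authors' deposited table). OGG1 (chromosome 3, 9749944 to 9788219), the glycosylase for oxidized guanine, was 1.64-fold lower (log2 fold change -0.71 with an adjusted p of 0.000544, authors' deposited table). MUTYH (chromosome 1, 45329163 to 45340470) went the other way and was 1.46-fold higher (log2 fold change 0.55 with an adjusted p of 0.000567, same deposited table). Of the other hydrolases of the nucleotide pool, NUDT18, which also acts on oxidized guanine nucleotides, was higher (log2 fold change 0.55, adjusted p = 0.0342) and NUDT5 was lower (-0.43, adjusted p = 0.000122) in the authors' deposited table. Enzymes that act on oxidized guanine were therefore called in both directions. The value of MUTYH is uncertain, since 13.7% of its exonic bases are shared with TOE1 on the opposite strand.

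Oxidized pyrimidines are excised by NTHL1 and the NEIL glycosylases. In the authors' deposited table NTHL1 was 1.60-fold lower (log2 fold change -0.68, adjusted p = 0.00734) and NEIL1 was 1.48-fold lower (log2 fold change -0.57, adjusted p = 0.0028). Both values are uncertain, as that of MUTYH is. On the opposite strand, TSC2 shares 14.8% of the exonic bases of NTHL1 and MAN2C1 shares 15.7% of those of NEIL1. NEIL3, which is known for acting on single-stranded DNA and on cross-links at replication forks, was 1.30-fold higher (log2 fold change 0.38 with an adjusted p of 0.0103, authors' deposited table). NEIL2 had the most negative listed value of the whole set (log2 fold change -3.53, or 11.6-fold) but did not pass (adjusted p = 0.0623 in the authors' deposited table). Only 3.52% of all genes tested had a larger absolute fold change than NEIL2, which took place 9436 by p. No direction is drawn for NEIL2.

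The other glycosylases of the set and its direct reversal enzyme, MGMT, were 4 lower and 0 higher of 6 (median log2 fold change -0.39). MPG, which excises alkylated purines, had a log2 fold change of -0.74 (adjusted p = 2.36e-05 in the authors' deposited table). SMUG1, a glycosylase for uracil and its oxidized derivatives, stood at -0.63, TDG, which removes thymine mispaired with guanine and oxidized forms of methylcytosine, at -0.31, and MGMT, which takes the alkyl group off guanine without cutting the strand, at -0.46, all lower on the log2 scale of the same deposited table. UNG, the main uracil glycosylase (log2 fold change 0.13, adjusted p = 0.294), and MBD4 (-0.04, adjusted p = 0.803) were not called in the authors' deposited table. Over the 11 glycosylases of both groups, 6 were lower (54.5%), 2 higher and 3 not called. The background of lower calls was 27.9%, and this grouping was made after the values were seen.

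Downstream of the glycosylases the calls were balanced. Of the 11 genes that open, mark, clean and seal the break, 4 were higher, 4 lower and 3 not called. That is 36.4% in each direction, against 29.7% higher and 27.9% lower of all genes tested. This pooling of pathways, like that of the glycosylases, was not among the groups planned. APEX1 (chromosome 14, 20455191 to 20457772), the principal endonuclease for abasic sites, was 1.73-fold lower (log2 fold change -0.79 with an adjusted p of 6.64e-15, authors' deposited table). Its weaker relative APEX2 was 1.38-fold higher (log2 fold change 0.46 with an adjusted p of 6.59e-05, same deposited table). The scaffold XRCC1 was higher by a small margin (log2 fold change 0.32, adjusted p = 0.00618), whereas its ligase partner LIG3 was 2.07-fold lower (log2 fold change -1.05, adjusted p = 4.78e-12), both as listed in the authors' deposited table. In the gene models used here 43.8% of the exonic bases of LIG3 also belong to exons of RFFL on the opposite strand. Whether counting used strand is not stated in the sources read here and RFFL itself stood at 0.82 in the authors' deposited table, so the value of LIG3 is uncertain. The repair polymerase POLB (log2 fold change 0.30 with an adjusted p of 0.0522, authors' deposited table) fell just outside the threshold.

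PARP1 had the smallest p of the whole set. This gene (chromosome 1, 226360691 to 226408079), which makes most of the ADP-ribose polymer at DNA breaks, was lower by 2.76-fold in that set (log2 fold change -1.47 with an adjusted p of 2.74e-82, authors' deposited table) and ranked at place 164 by p among the 15976 genes tested. Its closest functional relative PARP2 stood at -0.19 and was not called (adjusted p = 0.117, same table). PARG, the glycohydrolase that takes the polymer apart, was 1.45-fold higher (log2 fold change 0.54 with an adjusted p of 8.49e-06, authors' deposited table). The writer and the eraser of the polymer therefore carried opposite calls, 2.00 apart on the log2 scale.

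Enzymes that clean blocked ends were divided. APTX, which removes adenylate left by a failed ligation, was 1.49-fold higher (log2 fold change 0.58 with an adjusted p of 1.28e-06, authors' deposited table). TDP1, which frees trapped topoisomerase I from DNA, was 1.48-fold lower (log2 fold change -0.57, adjusted p = 5.11e-05), and TDP2, which acts on topoisomerase II, was not called (0.02, adjusted p = 0.924) in the authors' deposited table.

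**Figure D2:**
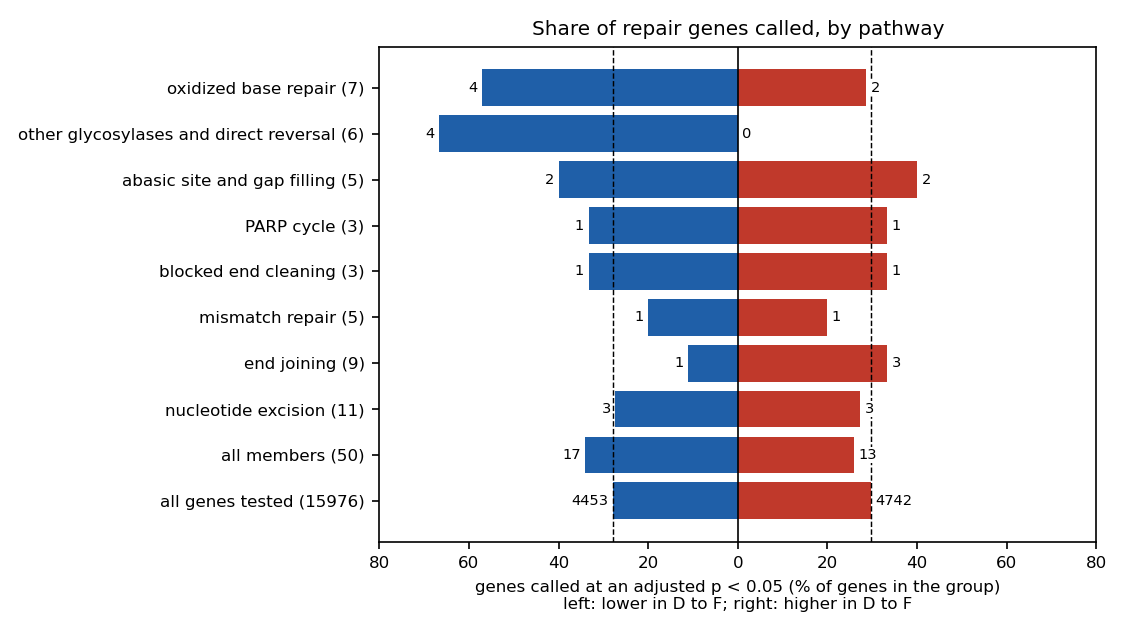
Share of the genes of each repair pathway called at an adjusted p under 0.05 (horizontal axis, percent), drawn to the left for genes lower and to the right for genes higher in libraries D to F. Numbers at the bars count genes, numbers in brackets give the genes in the group, and dashed lines mark all genes tested (27.9% lower and 29.7% higher). Oxidized base repair and the other glycosylases and direct reversal enzymes, with 4 genes lower each, extend past the dashed line on the left only. All members together do so too (34.0%). Abasic site and gap filling (40.0% each way), the PARP cycle and blocked end cleaning (33.3% each way) pass both dashed lines. End joining passes the line on the right only (33.3%). In the PARP cycle and blocked end cleaning each bar is 1 gene of 3. The group of 1 gene, RRM2B, is not drawn.

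Nucleotide excision repair held the largest increases. DDB2 (chromosome 11, 47214465 to 47239240), the subunit that recognizes ultraviolet photoproducts and is a known target of p53, was 2.59-fold higher (log2 fold change 1.37 with an adjusted p of 6.16e-29, authors' deposited table). ERCC4 (chromosome 16, 13920157 to 13952345), the XPF nuclease that cuts on the 5′ side of the lesion, was 2.38-fold higher (log2 fold change 1.25 with an adjusted p of 2.31e-20, same deposited table). XPA, which verifies the lesion, was 1.60-fold higher (log2 fold change 0.68 with an adjusted p of 1.64e-05, authors' deposited table). In the same pathway DDB1 (log2 fold change -0.53), ERCC1 (-0.63) and ERCC3 (-0.26) were lower in the authors' deposited table, which gives 3 higher and 3 lower of 11. These are 27.3% in each direction, near the 29.7% higher and 27.9% lower of all genes tested.

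The other 5 genes of nucleotide excision repair passed in neither direction. They were the damage sensor XPC (log2 fold change 0.09), the helicase ERCC2 (-0.19), the nuclease ERCC5 (-0.08) and the transcription-coupled factors ERCC6 (-0.22) and ERCC8 (-0.24), as listed in the authors' deposited table. ERCC5 shares 84.1% of its exonic bases with the read-through gene BIVM-ERCC5 on the same strand, and ERCC1 shares 36.6% with CD3EAP on the opposite strand, so both values are uncertain. RRM2B, the ribonucleotide reductase subunit that p53 can induce, was not called either (log2 fold change -0.05 with an adjusted p of 0.723, authors' deposited table). DDB2, XPC and RRM2B are all known p53 targets, and of these only DDB2 was called. Among 8 other p53 targets 3 were higher, CDKN1A (log2 fold change 2.50), GADD45A (4.29) and MDM2 (0.25), and SESN1 (-0.75) was lower in the authors' deposited table. TIGAR (0.39), BBC3 (0.15), FDXR (0.01) and ZMAT3 (-0.16) were not called. Of the 8, 50.0% were thus called, against 57.6% of all genes tested. No test compared DDB2 with the other targets.

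The sequences before the start sites of DDB2 and ERCC4, which had the largest called increases, and of PARP1, which had the largest called decrease, are given for comparison. Each is the 250 bases upstream of the start in RefSeq (GRCh38.p14), 5′ to 3′ on the strand of the gene, at chr11:47214204-47214453 (plus strand) for DDB2, chr16:13919904-13920153 (plus strand) for ERCC4 and chr1:226408094-226408343 (minus strand) for PARP1. Capitals mark CCAAT boxes (CCAAT) and GC boxes (GGGCGG) on either strand and, in ERCC4, the letters TTCGGC.
DDB2: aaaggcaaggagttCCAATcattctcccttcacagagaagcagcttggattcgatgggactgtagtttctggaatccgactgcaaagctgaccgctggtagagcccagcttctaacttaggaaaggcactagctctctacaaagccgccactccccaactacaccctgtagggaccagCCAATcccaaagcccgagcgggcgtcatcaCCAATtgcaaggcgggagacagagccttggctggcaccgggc
ERCC4: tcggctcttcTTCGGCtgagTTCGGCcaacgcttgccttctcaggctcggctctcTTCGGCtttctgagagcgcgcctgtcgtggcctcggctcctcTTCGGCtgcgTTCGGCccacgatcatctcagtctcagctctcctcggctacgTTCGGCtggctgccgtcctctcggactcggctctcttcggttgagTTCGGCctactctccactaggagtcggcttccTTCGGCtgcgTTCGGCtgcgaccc
PARP1: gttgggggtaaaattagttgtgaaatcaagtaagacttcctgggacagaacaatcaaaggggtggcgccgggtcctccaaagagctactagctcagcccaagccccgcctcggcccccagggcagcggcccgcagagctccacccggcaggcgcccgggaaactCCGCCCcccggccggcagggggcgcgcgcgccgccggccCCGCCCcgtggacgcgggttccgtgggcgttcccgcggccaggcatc
The window of DDB2 holds 3 CCAAT boxes and no GC box, that of PARP1 holds 2 GC boxes, 86 and 47 bases before the start, and no CCAAT box, and that of ERCC4 holds neither. Instead ERCC4 carries 9 copies of TTCGGC, counted on both strands, more than any of the other windows of this length, where the most is 6. Any copy at all was present in 7.92% of 12963 promoters of genes in the table. The copies were noticed in the printed sequence.

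Promoters were found for 44 of the 50 genes. Searched on both strands, the antioxidant response element core TGACNNNGC was present in 5 of the 44 (11.4%) and in 11.7% of the 12963 promoters. It was in none of the 13 genes higher and in 2 of the 15 genes lower that had a promoter entry. CCAAT was present in 18 of 44 (40.9%, against 34.3% of all promoters), namely in 8 of the 13 genes higher and 5 of the 15 lower. GGGCGG was in 29 of 44 (65.9%, against 61.2%) and the cyclic AMP response element TGACGTCA in 2 of 44 (4.55%, against 2.46%). CCAAT read on the opposite strand can share bases with GGGCGG, and these counts are descriptions of letters only. The median genomic span was 37.4 kb in the 13 genes higher and 36.9 kb in the 17 lower.

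**Figure D3:**
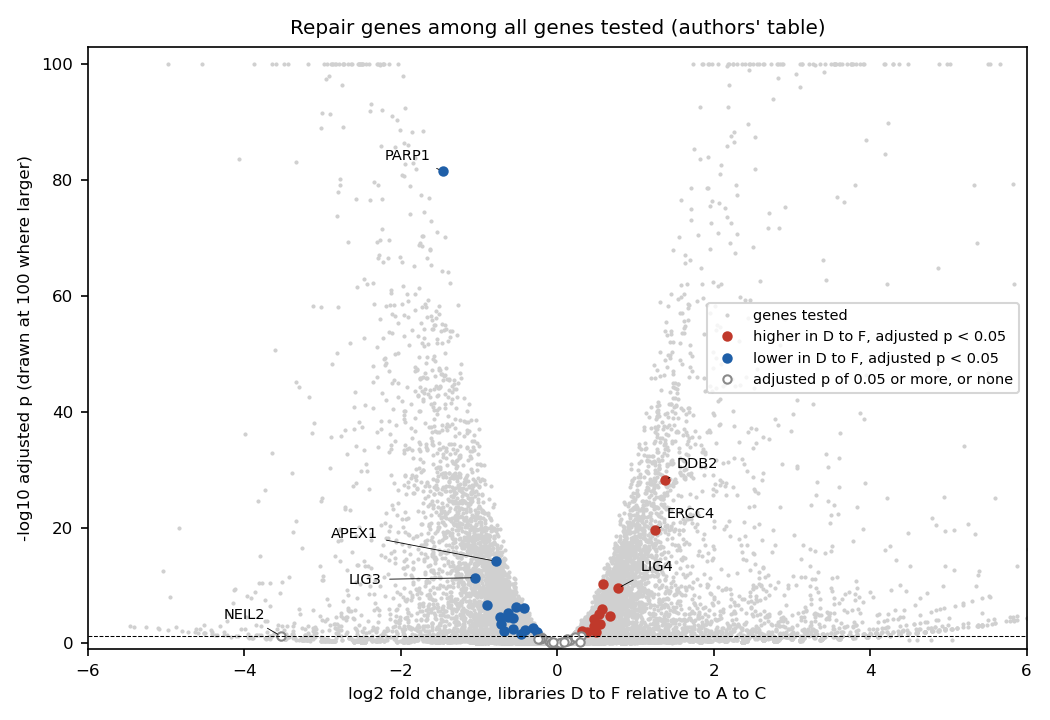
Log2 fold change of set D to F over set A to C (horizontal axis) against the -log10 of the authors' adjusted p (vertical axis, drawn at 100 where larger), 1 point per gene, with all genes tested in grey and the repair genes in colour. The dashed line marks an adjusted p of 0.05. The horizontal axis is cut on the right, and the largest value over all genes tested (10.62) lies outside it. PARP1 stands apart from the other repair genes, which apart from DDB2 and ERCC4 lie low and near the centre, and NEIL2 lies far left below the line.

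End joining had 3 genes higher, 1 lower and 5 not called of 9 (median log2 fold change 0.12). Calls made up 44.4% of this group, against 57.6% of all genes tested. LIG4, the ligase that closes double-strand breaks, was 1.71-fold higher (log2 fold change 0.77 with an adjusted p of 3.29e-10, authors' deposited table). Its obligate partner XRCC4 was 1.41-fold higher (log2 fold change 0.50, adjusted p = 0.0112) and the nuclease Artemis, encoded by DCLRE1C, was 1.39-fold higher (log2 fold change 0.47, adjusted p = 0.000892, both in the authors' deposited table). The Ku subunit XRCC5 was 1.35-fold lower (log2 fold change -0.43, adjusted p = 7.4e-07) while its partner XRCC6 stood at 0.12 and was not called (adjusted p = 0.173, same deposited table). The kinase PRKDC (log2 fold change -0.10), the filament protein NHEJ1 (0.29), the gap-filling polymerase POLL (0.03) and POLQ (0.12), which drives the alternative route through short homologies, passed in neither direction in the authors' deposited table.

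Mismatch repair had few calls, with 1 gene higher, 1 lower and 3 not called of 5. That is 40.0% called, against 57.6% of all genes tested. MSH6, the subunit that recognizes single mismatches, was 1.49-fold higher (log2 fold change 0.58 with an adjusted p of 5.18e-11, authors' deposited table), although 21.0% of its exonic bases lie over exons of FBXO11 on the opposite strand. PMS2, the endonuclease subunit, was 1.33-fold lower (log2 fold change -0.41 with an adjusted p of 0.00487, authors' deposited table). Reads of PMS2 may have been shared with its near-identical pseudogene copies, which makes the value uncertain. MSH3, which recognizes larger loops, stood at 0.17, and the MutL subunits PMS1 and MLH3 at 0.22 and 0.06, none of them called in the authors' deposited table.

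Several of these proteins work as pairs or act on the same kind of lesion, and 13 such pairs were set side by side. The pairs were chosen after the values were seen, so their counts are a description of these pairs only. In 6 of them 1 gene was higher and the other lower, in 5 only 1 gene was called, XRCC4 and LIG4 were both higher, and ERCC6 and ERCC8 were both not called. Of all genes tested, 29.7% were higher and 27.9% lower, so opposite calls also arise between unrelated genes. How often they do was not computed. The gap between partners in the authors' deposited table was 1.88 on the log2 scale between ERCC1 and ERCC4, which form a single nuclease, and 1.90 between DDB1 and DDB2, which form the photoproduct sensor. Between XRCC1 and LIG3 the difference of LIG3 minus XRCC1 was -1.37, and MUTYH exceeded OGG1 by 1.26 and APEX2 exceeded APEX1 by 1.25 in log2 fold change. The values of ERCC1 (36.6% of exonic bases shared with CD3EAP), LIG3 (43.8% with RFFL) and MUTYH (13.7% with TOE1) are uncertain for the overlaps given, which leaves 3 of the 6 opposite pairs uncertain. These gaps are differences of fold changes, not of levels, and were not tested.

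**Figure D4:**
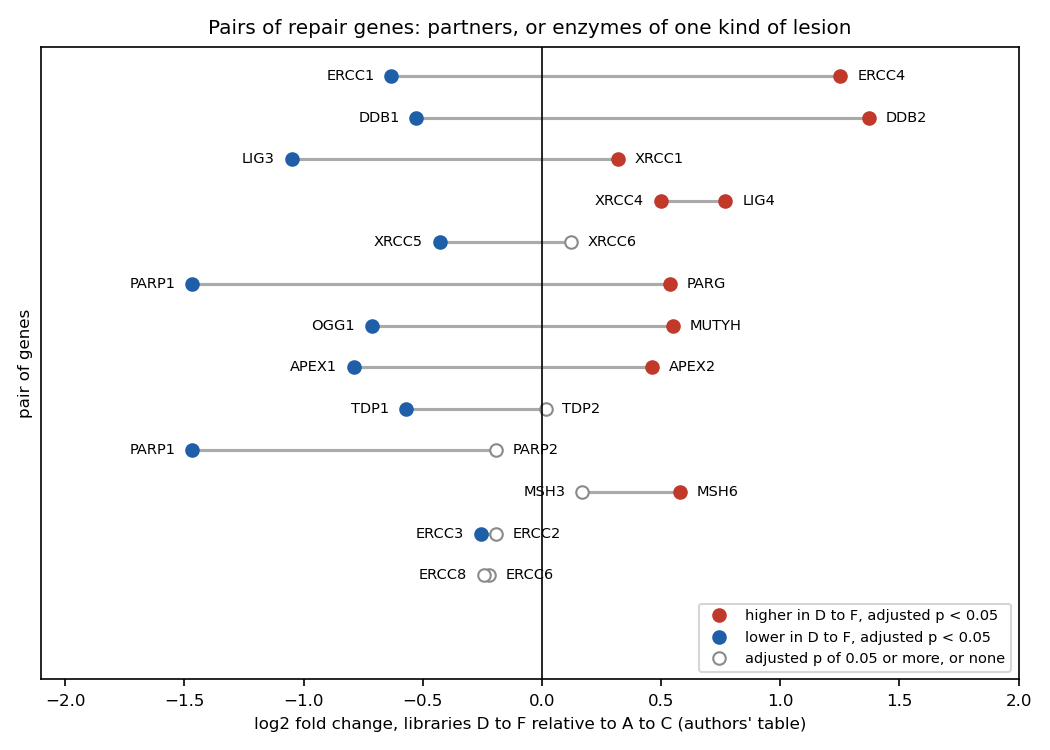
Log2 fold change of set D to F over set A to C (horizontal axis) for 13 pairs of repair genes, 1 pair per line and 1 point per gene, joined by a grey bar. Colours are as in the plot by pathway, and the points are drawn without error bars. In 6 pairs a blue point on the left is joined to a red one on the right, with XRCC4 and LIG4 the pair in which both are red.

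A list of 84 further genes of the same pathways, 82 of them with a row, was compared. Of these, 35 were higher and 15 lower in the authors' deposited table, or 43.2% and 18.5% of the 81 with an adjusted p, against 29.7% and 27.9% of all genes tested. Higher calls outnumbered lower ones here, unlike in the 50 genes above, and the difference between the lists was not tested.

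Nucleotide excision had 8 genes higher and 4 lower of 17 in this list. Of the 17, 47.1% were higher and 23.5% lower, beside 29.7% and 27.9% of all genes tested. The basal repair and transcription factor TFIIH, which unwinds DNA around the lesion, contributed GTF2H1 (log2 fold change 1.22, adjusted p = 4.27e-33), MNAT1 (1.10, adjusted p = 6.88e-17), GTF2H2, GTF2H3 and CCNH to the genes higher in the authors' deposited table. GTF2H2 has near-identical copies in the genome, and its value is uncertain. The small TFIIH subunit GTF2H5 was lower (-0.87), as was the helicase subunit ERCC3 described above, while CDK7 (1.16, adjusted p = 0.604) was not called in the authors' deposited table. Also in that table, XAB2 (log2 fold change 0.84) and ELOF1 (0.72), which act in transcription-coupled repair, were higher. The ligase subunits around DDB1 were divided in the authors' deposited table, with RBX1 at 0.82, CUL4B at -0.76 (both called) and CUL4A at -0.14 (not called), and the XPC partner CETN2 was lower at -1.02.

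The PARP family and the enzymes that handle ADP-ribose had 6 genes higher and 4 lower of 17 with an adjusted p. The share called was 58.8%, close to the 57.6% of all genes tested. The largest change was in TIPARP, a mono-ADP-ribosyltransferase induced by the aryl hydrocarbon receptor, 11.7-fold higher (log2 fold change 3.55 with an adjusted p of 1.67e-237, authors' deposited table). PARP3 (log2 fold change 0.96), which acts at double-strand breaks, the tankyrase TNKS2 (0.87), PARP12 (0.41), PARP6 (0.37) and PARP16 (0.33) were also higher in the authors' deposited table. PARP10 (-0.91), PARP4 (-0.80), PARP14 (-0.64) and PARP9 (-0.55) were lower in the same deposited table. HPF1, the cofactor that directs PARP1 and PARP2 to serine, was not called (0.12, adjusted p = 0.428 in the authors' deposited table). PARP1 was thus the member of the family with the most negative called fold change and TIPARP the one with the most positive.

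In base excision and the nucleotide pool 8 further genes were higher and 3 lower of 18. Calls reached 61.1% here, near the 57.6% of all genes tested. By direction 44.4% were higher and 16.7% lower, against 29.7% and 27.9%. The demethylase ALKBH1 was 4.10-fold higher (log2 fold change 2.03 with an adjusted p of 9.34e-45, authors' deposited table). ALKBH2 (0.72, adjusted p = 2.26e-07) was also higher and ALKBH3 (2.81, adjusted p = 0.433) was not called in the same deposited table. The single-strand binding subunits RPA2 (1.01) and RPA1 (-0.88) carried opposite calls, and POLE3 (1.01) was higher, in the authors' deposited table. LIG1 (-0.80), the replicative ligase that also seals long repair patches, was lower, as LIG3 was, in the same deposited table. FEN1, the flap nuclease of the long-patch branch, stood at 0.06 and was not called (adjusted p = 0.648 in the authors' deposited table).

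**Figure D5:**
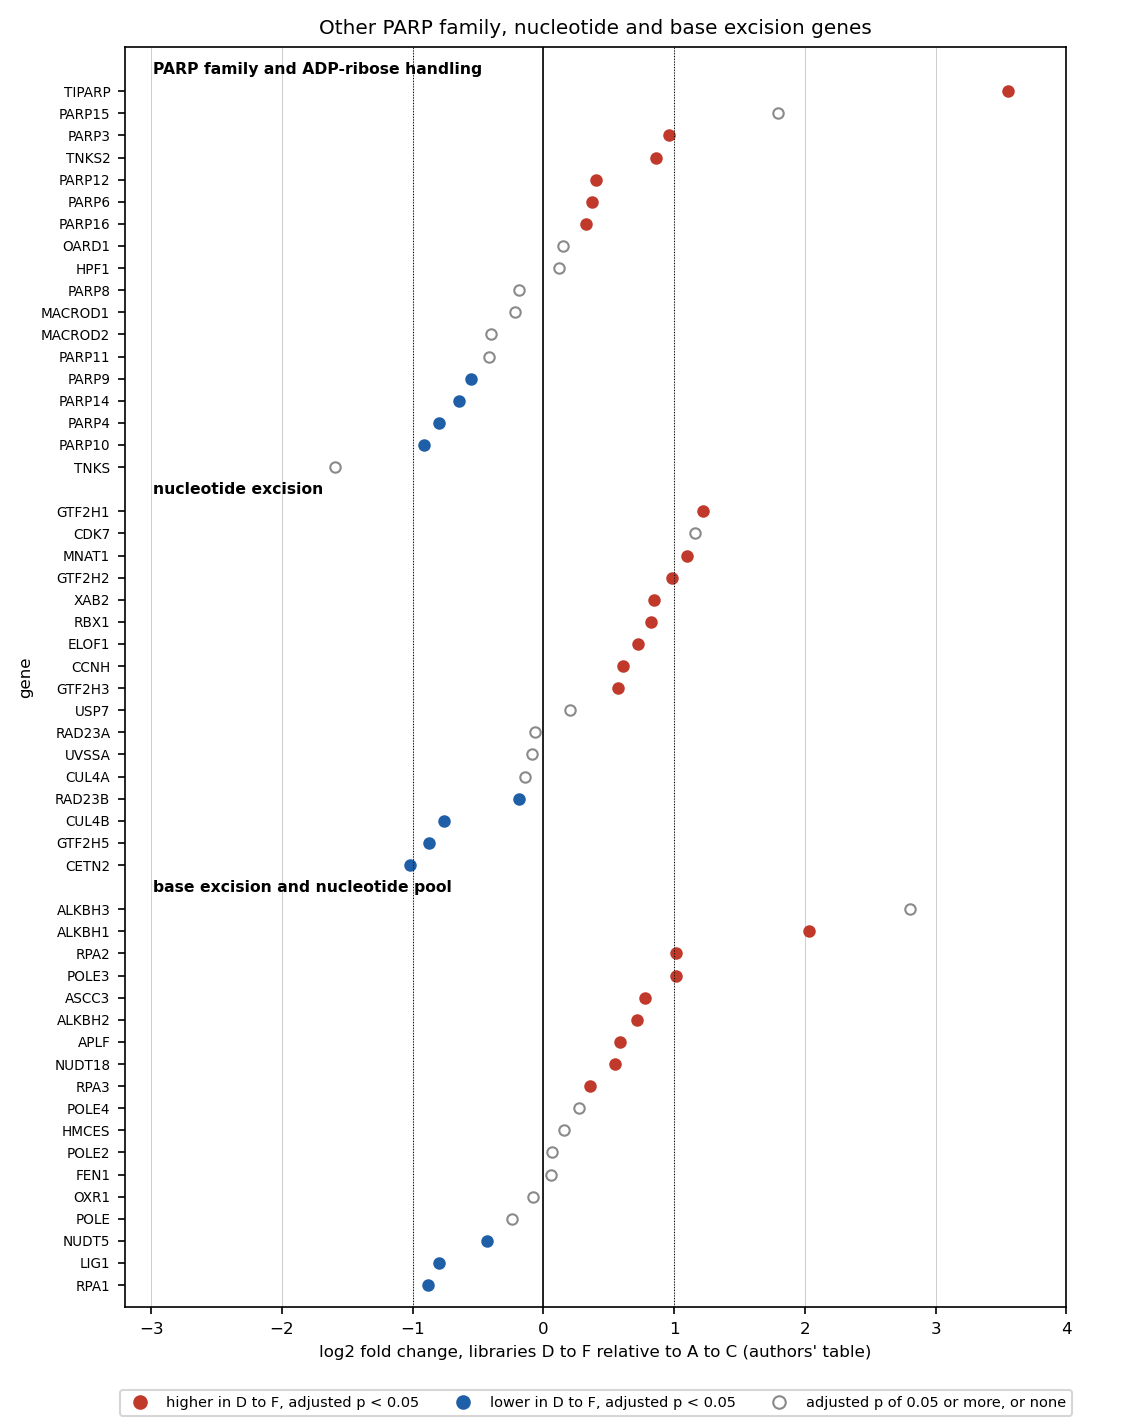
Log2 fold change of set D to F over set A to C (horizontal axis) for the further genes of 3 of the lists, 1 point per gene, with colours as in the plot by pathway and dotted lines at a 2-fold change. TIPARP at 3.55 and ALKBH1 at 2.03 are the called genes farthest to the right, and CETN2 at -1.02 is the called gene farthest to the left.

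Further mismatch repair genes, mostly clamp loaders and polymerase delta subunits shared with replication, were 7 higher and 2 lower of 11. In this list 81.8% were called, against 57.6% of all genes tested. RFC1 (log2 fold change 0.86), RFC2 (0.89), RFC4 (0.83) and EXO1 (0.59) were higher in the authors' deposited table. The largest change of this list was in the polymerase delta subunit POLD4, which was lower (log2 fold change -1.76, adjusted p = 0.00619), as was the catalytic subunit POLD1 (-0.28) in the same deposited table. Further end joining genes were 5 higher and 1 lower of 11, so 54.5% were called, near the 57.6% of all genes tested. The shieldin subunit SHLD3 at 1.58, RIF1 at 0.72, the polymerase POLM at 0.79 and SHLD1 at 1.15 were among those higher. TP53BP1 (-0.49) was lower, all in the authors' deposited table. Of 5 genes around DNA-protein cross-links only TOP2B was called (-0.88), and of the other ribonucleotide reductase subunits RRM2 was higher (0.83) and RRM1 not called (-0.12), again in the authors' deposited table. Since many of these genes follow the cell cycle, a list of 10 cycle genes was read beside them, with 3 higher, CDT1 (1.83), CDC6 (1.15) and MCM2 (0.34), and 3 lower, MKI67 (-0.91), CCNE1 (-0.41) and CCNA2 (-0.24), in the authors' deposited table. Their part in the repair values was not tested.

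Overlap between genes limits some values. Exons of 19 of the 50 genes overlap exons of another coding gene in GENCODE release 29, in 17 of them mainly on the opposite strand, and in 8 more than 10% of the exonic bases are shared. Among the oxidized base genes the shares were 15.7% for NEIL1 (with MAN2C1), 14.8% for NTHL1 (with TSC2), 13.7% for MUTYH (with TOE1) and 8.42% for OGG1 (with CAMK1), all on the opposite strand. On the log2 scale of the authors' deposited table TOE1 was listed at 1.42, MAN2C1 at -0.92 and TSC2 at -0.48, the same signs as MUTYH, NEIL1 and NTHL1. CAMK1 stood at 0.02, whereas OGG1 was lower. The part of these neighbours in the values was not tested. PARP1, DDB2, ERCC4, NUDT1 and LIG4 overlap no other coding gene.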

How the data were processed

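RNA of 6 samples of H1048 cells was measured by paired-end sequencing of NEBNext libraries, per the labels' protocols. Tools named in the submitters' processing notes are HTSeq, STAR, Trimmomatic and DESeq2, with the build hg38. Their versions, the gene annotation and whether strand was used were not given in the sources used here. Deposited by the authors were 2 tables of their own comparison of libraries D to F with A to C. The log2 fold changes, p-values and adjusted p-values of the larger table, under DESeq2's column names per the file headers, were used. Another 36 columns, 18 a table, hold values of single libraries that are tied to no sample by a label, and none was used. The planned count-based test was conditional on such a tie and was not run, and depth per library is not given.

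Of 16953 genes, 977 are listed at an adjusted p of exactly 1 and were read as having none. Benjamini-Hochberg adjustment of the other 15976 p-values matched the authors' values to within 1.2e-15 (the code was tested on simulated data). A gene was called at an adjusted p under 0.05. Pathways and further lists were described by counts and medians, with no test of a list. Of the further genes, 2 are not reported here. All members could be named; those with the largest called changes and all oxidized base genes received full values, and of the further genes mainly the smallest p in each list and every called PARP gene. The members and lists were chosen with earlier results of these data known. GENCODE release 29 gave positions and RefSeq (GRCh38.p14) gave promoters, for 44 members. Computation used pandas 2.3.3, numpy 2.4.6 and matplotlib 3.10.9 under Python 3.11.15.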

Additional observations from a re-analysis of the deposited data

How the results depend on the processing

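No paired analysis was possible because no label ties the values per library to the samples and their replicate numbers, and since no value of a single library was used, leaving out replicates, edgeR, DESeq2 and other filters on low counts were not run. Centring fold changes on the median of all genes shifts each value by only 0.06, less than the smallest called change of the set (-0.26, ERCC3), so it could turn no call; 3 genes that were not called changed sign. No call was lost when p-values were adjusted over all 16953 genes. At an adjusted p under 0.01, 4 calls ended, those of NEIL3, MGMT, XRCC4 and ERCC3. An unadjusted p under 0.05 added NEIL2 (lower) and POLB (higher).

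Limits on size changed the counts most, by construction. With at least 1.5-fold, 4 repair genes were higher and 9 lower; 3 were called in oxidized base repair, 2 among the other glycosylases, 2 in abasic site and gap filling, 1 in the PARP cycle, 0 in blocked end cleaning, 0 in mismatch repair, 1 in end joining and 4 in nucleotide excision. Of the further repair genes 26 were then higher and 10 lower. At this size 26.0% of the 50 genes and 44.4% of the further genes with an adjusted p were called. The share over all genes tested was 40.7% (21.2% higher and 19.5% lower). With at least 2-fold, 2 were higher and 2 lower; 0 were called in oxidized base repair, 0 among the other glycosylases, 1 in abasic site and gap filling, 1 in the PARP cycle, 0 in blocked end cleaning, 0 in mismatch repair, 0 in end joining and 2 in nucleotide excision. Of the further repair genes 8 were then higher and 2 lower. Here 8.0% of the 50 genes and 12.3% of the further genes with an adjusted p were called. The share over all genes tested was 24.1% (12.8% higher and 11.3% lower).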
